A study of Saccharomyces cerevisiae with 16 samples.

Results

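Untreated grande yeast grown in YM (minimal medium) were compared with untreated grande yeast grown in YPD (rich medium). The levels compared are those of 4 of the 16 libraries in the series, 2 from YM and 2 from YPD. They were chosen by the medium, cell type and MCHM entries of their labels. The comparison covers all genes that could be tested, and the spread used in its tests was taken from all 16 libraries. All 4 libraries came from S96, a haploid MATa strain of Saccharomyces cerevisiae of the S288c background that carries a lys5 mutation and still respires (labelled normal, called grande). The YM was supplemented with lysine. YPD holds yeast extract, peptone and glucose. For each medium, a pair of replicate cultures was grown to mid-log phase, diluted to early log phase, divided, and the subculture without MCHM (4-methylcyclohexanemethanol) was grown for another 2.5 h per the labels, while the study's text gives a shorter time. The other 12 libraries were from MCHM-treated subcultures of the same grande cultures and from petite yeast, a form of S96 that cannot respire, with and without MCHM. S96 is a single strain, so nothing here separates a response of this strain from that of other yeast.

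Yeast extract and peptone supply amino acids, peptides, nucleobases, vitamins and inositol. A minimal medium leaves most amino acids and nucleobases to be made from ammonium, sulfate and glucose. Which vitamins and how much inositol this YM held is not given in the study's text. Yeast adjust to a minimal medium by several known routes. Gcn4 activates genes of amino acid synthesis, Cbf1 with Met4 activates the genes that reduce sulfate and make methionine, and Ino2 with Ino4 activates phospholipid genes when inositol is scarce. The GATA factors Gln3 and Gat1 activate genes for the uptake and breakdown of less preferred nitrogen sources. In the other direction, a sensor of external amino acids in the plasma membrane induces several amino acid permeases through Stp1 and Stp2.

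The counts added up to 2854748 and 3499724 in YM and to 2015485 and 3832189 in YPD, within the range of 2015485 to 5694566 over all 16 libraries. Each group has a library with a low and a library with a high culture number, called here the lower and the higher series. In every pair of values below the library of the lower series stands first. Levels are CPM (counts divided by the library's total and multiplied by 1e+06) after scaling with TMM factors, so a single count stood for 0.26 to 0.46 CPM. CPM is a share of the RNA counted, and less RNA of a gene per cell cannot be told apart from more RNA of other genes. Between the 2 libraries of a group, 15.5% of genes in YM and 16.3% in YPD differed by more than 2-fold, against 7.55% to 14.6% in the other 6 groups. The MATa gene STE2, which encodes the receptor for alpha-factor, had 1030 and 2120 CPM in YM and 1160 and 1360 CPM in YPD, while the alpha-specific genes STE3 and MF(ALPHA)2 stayed at or under 12.8 CPM. SAG1, the alpha-agglutinin gene, was not near 0, with 73.4 and 83.4 CPM in YM and 45.1 and 45.7 CPM in YPD. LYS5 was counted in all 4 libraries. The 19 annotated genes of the mitochondrial genome had 4 and 4 counts in YM and 1 and 4 in YPD in all, so these counts cannot check the grande label.

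Of 5856 genes tested, 152 (2.6%) were differentially expressed at an adjusted p under 0.05 and a fold change of at least 2, of 163 (2.78%) at that adjusted p with any fold. Of these, 109 (1.86% of genes tested) were higher in YM and 43 (0.734%) were lower, and the YM and YPD libraries did not overlap for any of the 152. Each adjusted p given here is from edgeR's quasi-likelihood test over all genes tested, with Benjamini-Hochberg adjustment. Large changes were mostly upward, since 68 of the higher genes (1.16% of genes tested) and 14 of the lower genes (0.239%) differed at least 4-fold. The median log2 fold change over all genes was near 0 (-0.0064), and the groups did not overlap for 1223 genes (20.9%) with YM above and 1307 (22.3%) with YM below. The share of higher genes among the calls was 71.7% with TMM factors and 49.6% when libraries were scaled by total count alone, which moved the median of all genes to -0.23. The number of calls was 79 without the lower YM library, 87 without the higher YM library, 84 without the lower YPD library and 36 without the higher YPD library, and 26 genes (24 higher, 2 lower) were called in all of these 4 fits. With only the 4 libraries in the fit, 8 genes passed (GAP1, DAL3, MET3, GDH1, UGA4, TAT1, BAP2 and BAP3).

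**Figure D1:**
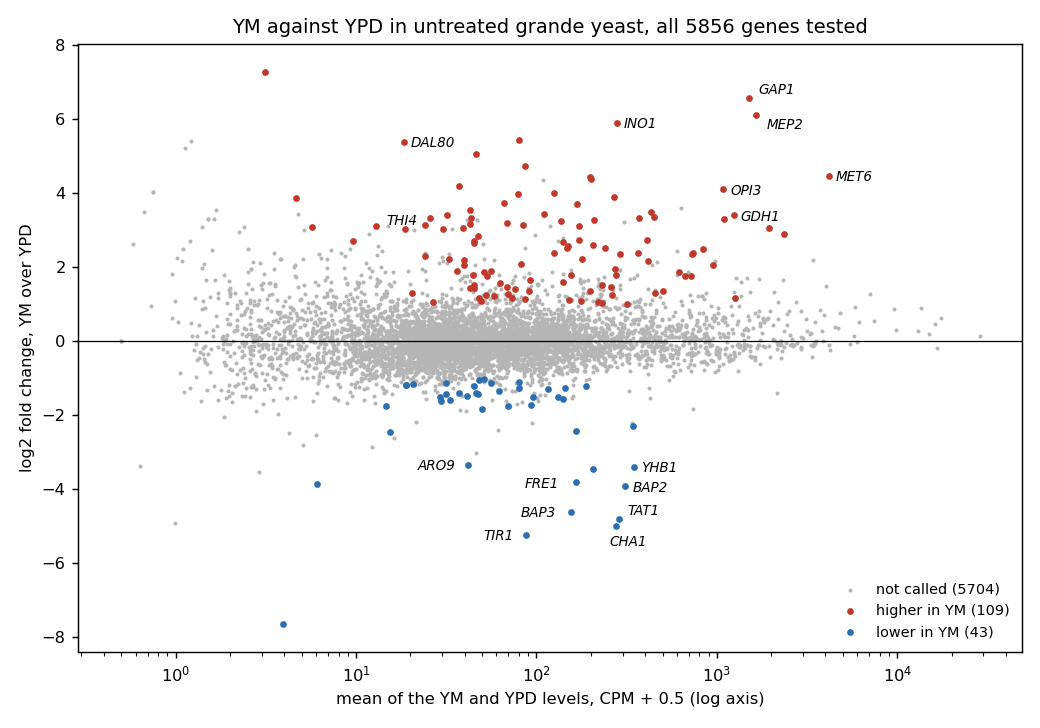
Each point is 1 of the 5856 genes tested, with its mean CPM over the YM and YPD groups plus 0.5 (x axis, log scale) and its log2 fold change, YM over YPD (y axis). The 109 genes higher in YM (red) reach further from 0 at high levels than the 43 lower genes (blue), and GAP1 and MEP2 stand at the top among abundant genes.

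The uptake of nitrogen led the genes that were higher in YM, since GAP1 and MEP2 had the highest fold changes of all genes called with a count in both media. GAP1, the general amino acid permease, had 1731 and 4265 CPM in YM and 32.7 and 30.5 CPM in YPD. It was 94.9-fold higher in YM (log2 6.57 ± 0.86, SE, adjusted p = 0.00234), and both YM libraries lay far above both YPD libraries. MEP2, the high-affinity ammonium permease, had 1781 and 4681 CPM in YM and 33.2 and 59.1 CPM in YPD, and the difference was 6.12 ± 0.77 on the log2 scale (adjusted p = 0.00224). MEP1, a second ammonium permease, was at 258 and 243 CPM in YM and at 45.6 and 42.5 CPM in YPD, and here the replicates of each medium almost coincided (log2 2.51 ± 0.28). GDH1, the NADP-dependent glutamate dehydrogenase that fixes ammonium, rose by 3.40 ± 0.37 on the log2 scale, with 2651 and 1874 CPM in YM and 199 and 229 CPM in YPD (adjusted p = 0.00115). GLT1, which makes glutamate from glutamine, rose less (1.31 ± 0.30). In all, 4 of 8 ammonium and glutamate genes were called higher, against 1.86% of all genes tested. The list median was 1.46, against -0.0064 for all genes.

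Genes for the use of proline, allantoin and urea rose with them, 9 of 18 tested, against 1.86% of all genes tested. Their list median was 2.25. DAL80, a GATA repressor of this same group of genes, had 15.9 and 54.4 CPM in YM and 0 and 1.31 CPM in YPD, so its fold change (log2 5.38 ± 0.87) rests on 5 counts in YPD. DAL3, which encodes an enzyme of allantoin breakdown, was at 97.4 and 81.4 CPM in YM and at 2.30 and 2.89 CPM in YPD (log2 5.06 ± 0.67, adjusted p = 0.00247). The activator gene GAT1 rose by 4.01 ± 0.66 and the proline oxidase gene PUT1 by 3.98 ± 0.42 on the log2 scale, PUT1 with 184 and 111 CPM in YM and 11.98 and 7.09 CPM in YPD. The permease genes PUT4 (proline), UGA4 (GABA) and CAN1 (arginine) rose by 4.74, 3.17 and 2.38, and DAL5, an allantoate and dipeptide permease, by 3.18. GAP1, MEP2, MEP1, GDH1, DAL3, PUT4 and PUT1 kept their call without any one of the 4 libraries. DAL80, GAT1 and UGA4 lost it without either YPD library, the other 5 genes of proline, allantoin and urea use (DAL7, DUR3, DUR12, DAL1 and DAL2, log2 2.19 to 3.43) without at least 1 library, CAN1 and DAL5 also without the higher YM library, and GLT1 without any of the 4 (adjusted p up to 0.154 in these fits).

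The upstream sequences of 3 of these genes are shown because the letters bound by GATA factors (GATAAG, either strand) recur in them. Each is read 5′ to 3′ on the strand of its gene from the R64 genome, with every match in capitals. The MEP2 stretch (chrXIV:356983-357135, plus strand) lies 470 to 318 bases before the coding start and overlaps the annotated open reading frame YNL143C. The GAP1 stretch (chrXI:514713-514833, plus strand) lies 350 to 230 bases before the start and in no annotated gene. The DAL80 stretch (chrXI:506603-506683, plus strand) lies 295 to 215 bases before the start and overlaps the open reading frame YKR032W.
MEP2: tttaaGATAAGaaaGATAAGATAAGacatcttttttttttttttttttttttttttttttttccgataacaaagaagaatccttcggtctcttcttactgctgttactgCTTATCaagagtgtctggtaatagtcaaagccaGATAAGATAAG
GAP1: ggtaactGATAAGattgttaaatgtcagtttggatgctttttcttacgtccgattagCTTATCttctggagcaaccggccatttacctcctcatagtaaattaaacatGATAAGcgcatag
DAL80: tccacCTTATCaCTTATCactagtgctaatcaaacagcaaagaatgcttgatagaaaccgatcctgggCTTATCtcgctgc

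Over the 500 bases before the coding start, MEP2 held 7 matches, GAP1 4 and DAL80 3. All 9 called genes of proline, allantoin and urea use and all 4 called ammonium and glutamate genes had at least 1 match, against 22.8% of the 5986 upstream windows of this length in the genome. Of the 4 permease genes that rose, 3 had one, and PUT4 had none. A match is a stretch of letters and does not show binding.

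**Figure D2:**
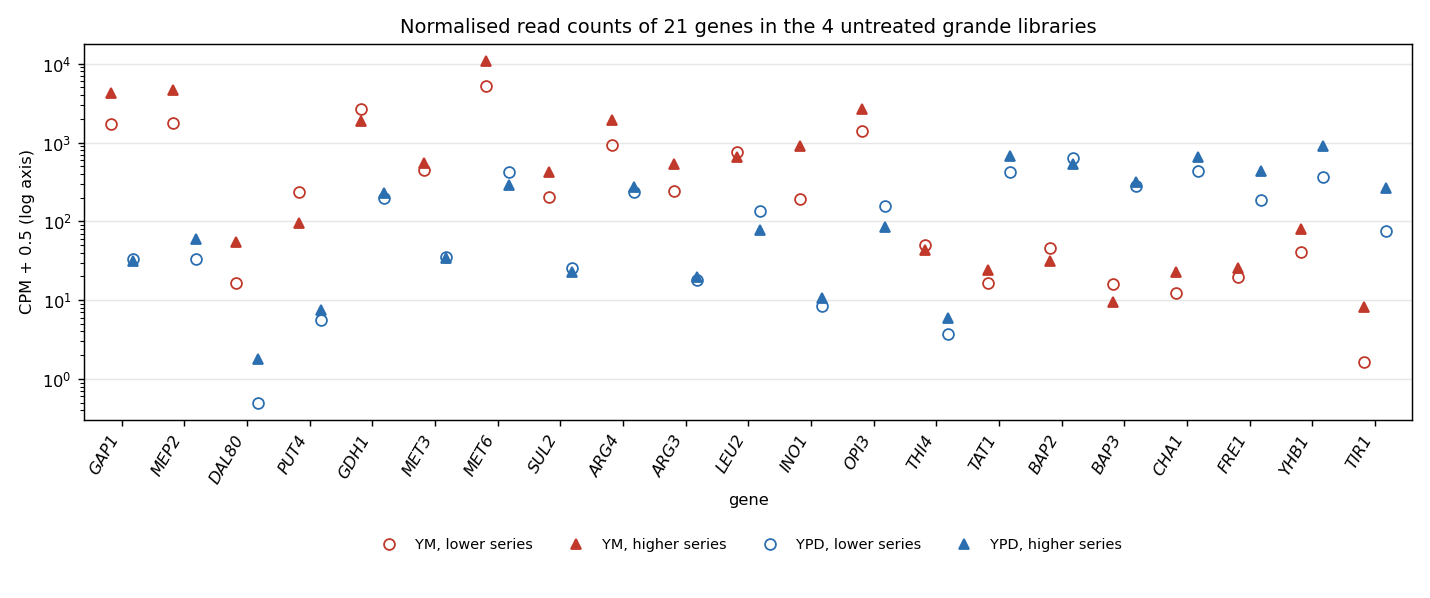
CPM plus 0.5 (y axis, log scale) of 21 genes in each YM library (red, left of each gene's mark) and each YPD library (blue, right), with the lower series as open circles and the higher series as triangles. For every gene shown, both libraries of a medium lie on the same side of both libraries of the other, and a level of 0 (DAL80 in 1 YPD library) is drawn at 0.5.

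Sulfate uptake, sulfate reduction and methionine synthesis formed the list with the most genes higher in YM, 13 of 22 tested, none lower. Of all genes tested, 1.86% were called higher. The list median was 2.87. MET6, the methionine synthase, had 5177 and 10800 CPM in YM and 427 and 291 CPM in YPD (log2 4.48 ± 0.51, adjusted p = 0.00128), and was more than 10-fold higher in either YM library than in either YPD library. MET3, the ATP sulfurylase that takes sulfate into the pathway, was at 454 and 555 CPM in YM and at 34.6 and 33.6 CPM in YPD (log2 3.89 ± 0.40). The sulfate permease gene SUL2 rose by 3.71 ± 0.49 and MET10, a sulfite reductase subunit, by 3.50 ± 0.41 on the log2 scale. The other 9 genes that rose were MET5, MET13, MET14, MET16, MET17, MET1, SUL1, STR3 and SAM2, with log2 fold changes of 2.07 to 3.33. The YM and YPD libraries did not overlap for 19 of the 22 genes with YM above, against 20.9% of all genes. MET6, MET3, SUL2, MET10, MET13, MET14 and SAM2 kept their call without any one of the 4 libraries, and the other 6 genes lost it without at least 1. PDC6, a pyruvate decarboxylase gene known to be induced when sulfur is short, had 33.8 and 11.2 CPM in YM and 0.921 and 3.68 CPM in YPD (log2 3.12 ± 0.70, adjusted p = 0.0365). Its call was lost without the lower YM library, without either YPD library, under scaling by total count and with only the 4 libraries in the fit (adjusted p up to 0.299).

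Upstream of 3 of these genes the letters CACGTG, which Cbf1 and Pho4 both read, occur as a close pair. They are shown with the matches in capitals, on the plus strand of R64, none inside an annotated gene: MET3 at chrX:455854-455894, SUL2 at chrXII:323204-323248 and MET10 at chrVI:213056-213094.
MET3: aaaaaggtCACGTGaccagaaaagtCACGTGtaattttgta
SUL2: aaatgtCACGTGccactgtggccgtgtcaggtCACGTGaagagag
MET10: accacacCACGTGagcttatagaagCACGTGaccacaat

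Of the 13 sulfur genes that rose, 10 (76.9%) had a CACGTG match in their 500-base window, against 6.23% of all windows. The same letters were found upstream of 76.5% of the 17 phosphate genes, none of which passed the test. The motif of Met31 and Met32 (AAACTGTGG) was found for 3 of the 13, against 0.835% of all windows.

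Arginine synthesis was higher in YM, with a list median of 2.16. Of its 10 genes, 6 were called higher and all 10 had YM above YPD without overlap, against 1.86% and 20.9% of all genes tested. ARG3, the ornithine carbamoyltransferase, had 240 and 528 CPM in YM and 17.5 and 19.4 CPM in YPD (log2 4.37 ± 0.83, adjusted p = 0.0178). ARG56, which makes the enzymes of the pathway's kinase and reductase steps, had 470 and 1157 CPM in YM and 64.5 and 92.7 CPM in YPD (log2 3.37 ± 0.56). ARG4 and ARG8 rose by 2.50 ± 0.45 and 2.38 ± 0.50, and ARG1 and ARG7 were the other 2 genes called, neither in all fits that left out 1 library. In all 6 the YM library of the higher series had the larger value of the pair. ARG56 lost its call without either YPD library, and ARG3, ARG4 and ARG8 also without the higher YM library, with adjusted p up to 0.145 in these fits.

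The motif of Gcn4 (TGACTCA) was found upstream of all 6 called arginine genes and of 4.01% of all windows. The stretches of 3 of them are shown with the motif in capitals, none inside an annotated gene: ARG3 at chrX:268471-268506 and ARG56 at chrV:295173-295208 on the plus strand, and ARG4 at chrVIII:141561-141596 on the minus strand of R64.
ARG3: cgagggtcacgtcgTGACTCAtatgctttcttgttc
ARG56: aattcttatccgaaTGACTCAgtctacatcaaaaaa
ARG4: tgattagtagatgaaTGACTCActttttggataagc

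Other amino acid pathways moved less. In branched-chain synthesis 3 of 11 genes rose and 1 fell, against 1.86% and 0.734% of all genes tested. The list median was 1.24. LEU2, the isopropylmalate dehydrogenase, had 768 and 649 CPM in YM and 136 and 76.7 CPM in YPD (log2 2.74 ± 0.44), LEU1 rose by 2.18 and the mitochondrial aminotransferase gene BAT1 by 1.77. BAT2, the cytosolic aminotransferase that works mainly in breakdown, went the other way, with 60.6 and 42.9 CPM in YM and 343 and 214 CPM in YPD (log2 -2.43 ± 0.39, adjusted p = 0.00714). The Leu3 motif was found upstream of all 3 genes that rose and of 0.267% of all windows. LEU2 lost its call without the higher YPD library, BAT2 without the higher YM library, BAT1 without that library or either YPD library, and LEU1 without any of the 4 (adjusted p up to 0.145).

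Histidine synthesis had 1 of 7 genes called, HIS3 (log2 1.37 ± 0.32). This call was lost without any one library, under scaling by total count alone and with only the 4 libraries in the fit (adjusted p up to 0.217). Serine, glycine, threonine, asparagine and proline synthesis had 1 of 18, SER3, which encodes the first enzyme of serine synthesis from glycolysis (277 and 311 CPM in YM, 62.7 and 64.3 CPM in YPD, log2 2.21 ± 0.31). SER3 overlaps the noncoding RNA gene SRG1, so reads of the bases they share are not separated between them. None of the 9 lysine genes passed (median 0.62), with LYS21 at 1.15 (adjusted p = 0.078) and LYS1 at 1.88 (adjusted p = 0.14). None of the 13 aromatic amino acid genes passed either (median 0.49). The medians of these lists were above that of all genes, while LYS21, LYS1 and TRP5 (at 1.21, an aromatic gene) passed in DESeq2 (adjusted p = 0.0159, 0.0317 and 0.013) and with a replicate block.

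Several phospholipid synthesis genes and the inositol and choline permease genes rose. Of 19 genes of fatty acid and phospholipid synthesis, 7 were called higher, against 1.86% of all genes tested. All 19 fold changes were above 0 (median 0.82). INO1, which makes inositol 3-phosphate and so supplies the cell with inositol, had 194 and 898 CPM in YM and 7.83 and 10.2 CPM in YPD, 59.5-fold higher in YM (log2 5.89 ± 0.79, adjusted p = 0.00263). The 2 YM libraries were more than 4-fold apart, and both were far above YPD. OPI3, which methylates phosphatidylethanolamine toward phosphatidylcholine, had 1411 and 2677 CPM in YM and 155 and 83.2 CPM in YPD (log2 4.11 ± 0.54). ITR1, the inositol permease, rose by 2.88 ± 0.44, with 2803 and 5457 CPM in YM and 519 and 599 CPM in YPD, and HNM1, the choline permease, by 2.07 ± 0.37. CHO1, PSD1 and CKI1 were the other 3 genes called (log2 1.08 to 1.88), none of them in all fits that left out 1 library. The fatty acid synthase genes FAS1 and FAS2, the carboxylase gene ACC1 and the desaturase gene OLE1 were not called. INO1 and OPI3 kept their call without any one library, ITR1 lost it without either YPD library, and HNM1 also without the higher YM library (adjusted p up to 0.084).

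The letters CATGTG, the core of the element read by Ino2 and Ino4, were searched for after these values had been seen. They were found upstream of all 7 genes called and of 13.2% of all windows. Stretches of INO1 (chrX:136098-136183), ITR1 (chrIV:1445677-1445757) and HNM1 (chrVII:364161-364201), all on the minus strand of R64 and in no annotated gene, are shown with the matches in capitals.
INO1: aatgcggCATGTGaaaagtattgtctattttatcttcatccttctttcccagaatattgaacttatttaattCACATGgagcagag
ITR1: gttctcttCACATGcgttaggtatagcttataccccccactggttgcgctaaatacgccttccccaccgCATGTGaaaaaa
HNM1: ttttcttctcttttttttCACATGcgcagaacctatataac

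Among vitamin genes, THI4, which makes the thiazole part of thiamine, had 49.3 and 42.9 CPM in YM and 3.22 and 5.51 CPM in YPD (log2 3.34 ± 0.51, adjusted p = 0.00589). PHO3, an acid phosphatase that thiamine is known to repress and that was placed in the same list, fell to 105 and 126 CPM in YM, against 454 and 680 CPM in YPD (log2 -2.30 ± 0.28). These were the only 2 of 14 thiamine genes called. Of the 14, 12 had fold changes above 0 (list median 0.50). YM lay above YPD without overlap for 8 and below for 1, against 20.9% and 22.3% of all genes tested. In the list of biotin, nicotinic acid and pantothenate, 3 of 16 genes rose, against 1.86% of all genes tested. They were the biotin gene BIO3 (2.84 ± 0.46) and the kynurenine pathway genes BNA2 (2.70 ± 0.54) and BNA3 (1.61 ± 0.24). BNA2 overlaps the annotated gene YJR079W. BIO3 lost its call without either YPD library and BNA2 without the lower YM library or either YPD library (adjusted p up to 0.184).

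Several permeases and enzymes of amino acid breakdown were among the genes that fell. TAT1, a permease of branched-chain and aromatic amino acids, had 15.9 and 23.4 CPM in YM and 420 and 681 CPM in YPD, 27.9-fold lower in YM (log2 -4.80 ± 0.51, adjusted p = 0.00115). BAP3 had 15.5 and 8.90 CPM in YM and 281 and 315 CPM in YPD (log2 -4.61 ± 1.02), and BAP2, its close relative, 45.4 and 31.3 CPM in YM and 630 and 532 CPM in YPD (log2 -3.92 ± 0.67). The glutamine permease gene GNP1 was lower by -3.46 ± 0.58 and the tryptophan permease gene TAT2 by -1.57 ± 0.33. Of the 20 permeases tested, 4 thus rose and 5 fell, against 1.86% and 0.734% of all genes tested. Their median (0.11) shows neither group. TAT1 kept its call in all alternatives tried, although it overlaps the annotated noncoding gene TBRT. TAT2 lost its call without at least 1 library, BAP2 without either YM library, GNP1 without the higher YM or the higher YPD library, and BAP3 without any of the 4 (adjusted p up to 0.177).

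CHA1, the deaminase that lets yeast use serine and threonine as nitrogen sources, had 11.6 and 22.1 CPM in YM and 430 and 645 CPM in YPD (log2 -4.99 ± 0.73, adjusted p = 0.00455). ARO9, an aminotransferase of aromatic amino acid breakdown, had 3.49 and 11.2 CPM in YM and 62.7 and 88.0 CPM in YPD (log2 -3.33 ± 0.64). OPT1, an oligopeptide transporter, had 68.7 and 68.2 CPM in YM and 170 and 220 CPM in YPD (log2 -1.51 ± 0.32). Like BAT2, CHA1 and ARO9 encode enzymes that act on amino acids, while OPT1 encodes a transporter of peptides. The source of these amino acids and peptides was not measured. CHA1 missed the threshold without the lower YM library (adjusted p = 0.0502), ARO9 without the lower YM or the higher YPD library (up to 0.117) and OPT1 without any of the 4 (up to 0.194).

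Of 26 iron genes only FRE1 was called. This ferric and cupric reductase gene had 19.0 and 24.7 CPM in YM and 184 and 430 CPM in YPD (log2 -3.81 ± 0.59, adjusted p = 0.00608), while the median of the list was -0.07. FRE1 is known to be activated by Mac1 under copper shortage and by Aft1 under iron shortage. The Mac1 letters TTTGCTC occurred 3 times in its window, against 8.6% of all windows with at least 1, and no match to the Aft1 letters TGCACCC was found there. The stretch 293 to 255 bases before its start (chrXII:568274-568312, plus strand of R64, in no annotated gene) holds 2 of the 3, in capitals.
FRE1: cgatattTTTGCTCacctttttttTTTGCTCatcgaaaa
The copper permease gene CTR1 was at -1.34 (adjusted p = 0.0773), and none of 7 copper genes passed. FRE1 lost its call without the lower YM library (adjusted p = 0.0634).

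YHB1, the flavohemoglobin that detoxifies nitric oxide, had 40.8 and 80.4 CPM in YM and 359 and 913 CPM in YPD (log2 -3.39 ± 0.58). TIR1, a cell wall mannoprotein gene, had 1.16 and 7.58 CPM in YM and 75.1 and 265 CPM in YPD (log2 -5.23 ± 1.05, adjusted p = 0.0229), and was the only member called of 9 DAN, TIR and CWP genes tested. In both genes the higher series had the larger value in each medium. YHB1 lost its call without the lower YM or the higher YPD library and TIR1 without either YM library or the higher YPD library (adjusted p up to 0.145).

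Several genes of ribosome assembly were among the 43 lower genes, although the list of ribosome biogenesis factors had only EBP2 called of 40 (log2 -1.52 ± 0.31). EBP2 had 46.6 and 52.4 CPM in YM and 119 and 164 CPM in YPD. NOP53, a nucleolar factor of the large subunit, had 23.7 and 19.8 CPM in YM and 69.6 and 83.5 CPM in YPD (log2 -1.82 ± 0.36, adjusted p = 0.0229). RRP14, CGR1, KRI1, KRR1, ESF1, FPR3 and the RNA polymerase I subunit gene RPA34 were lower too, by -1.09 to -1.60. These 7 genes were picked for mention after their values had been seen, are no independent evidence for a group, and were each lost without at least 1 of the 4 libraries. The median of the 40 listed factors was -0.40, with 34 of 40 below 0. YM lay below YPD without overlap for only 7 of the 40 and above for 0, against 22.3% and 20.9% of all genes tested. The list median was 0.14 in the fit with the highest value among the alternatives. EBP2 lost its call without either YM library or the higher YPD library and NOP53 without any of the 4 (adjusted p up to 0.191).

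Most lists had no gene called. The 136 ribosomal protein genes had a median of -0.26, with YM below YPD and no overlap for 74 of them, and the 33 proteasome genes a median of -0.46, with 26 of 33 below without overlap, against 22.3% of all genes. Of the proteasome genes, RPN5 came nearest to the threshold, at -1.06 (adjusted p = 0.0512). The 17 genes of phosphate uptake and storage had a median of -1.14 and 11 without overlap below, with VTC3, a subunit of the polyphosphate polymerase, at -2.20 (adjusted p = 0.0571) and SPL2 at -1.85 (adjusted p = 0.0587). None of these 3 lists changed the sign of its median in the alternatives tried. RPN5, VTC3 and SPL2 passed with DESeq2 (adjusted p = 0.005, 0.00174 and 0.0059), and each gained a call in 4 of the alternatives.

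General stress genes were on the positive side, 18 of 18, with a median of 1.64. YM lay above YPD without overlap for 7 of the 18, against 20.9% of all genes tested. Their summed level was 13290 and 3317 CPM in YM and 4294 and 640.1 CPM in YPD, so the YM library of the higher series was below the YPD library of the lower series. Only GRE1, a hydrophilin gene, was called (log2 3.73 ± 0.81, adjusted p = 0.0336). GRE1 had 212 and 32.3 CPM in YM and 11.1 and 7.61 CPM in YPD, so its YM libraries were over 6-fold apart. It lost its call without the lower YM library or either YPD library, under scaling by total count and with only the 4 libraries in the fit (adjusted p up to 0.292). The list median ran between 0.38 and 3.21 in the alternatives. CIT2, the peroxisomal citrate synthase, was the only one called of 19 citrate cycle and retrograde genes, with 537 and 169 CPM in YM and 84.3 and 33.9 CPM in YPD (log2 2.59 ± 0.58). Its call was lost without the lower YM or the higher YPD library, under scaling by total count and with only the 4 libraries in the fit (adjusted p up to 0.322). None of the 40 nuclear genes of the respiratory chain and ATP synthase passed (median 0.38), with NDE2 at 2.91 (adjusted p = 0.0611), and none of the 67 mitochondrial ribosomal protein genes (median -0.23). Purine, pyrimidine, ergosterol, sphingolipid, hexose transporter, trehalose, chaperone, histone, cyclin and mating genes had no call either, and for 9 of these 10 lists the median was between -0.07 and 0.16, with a sign that turned under at least 1 alternative.

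**Figure D3:**
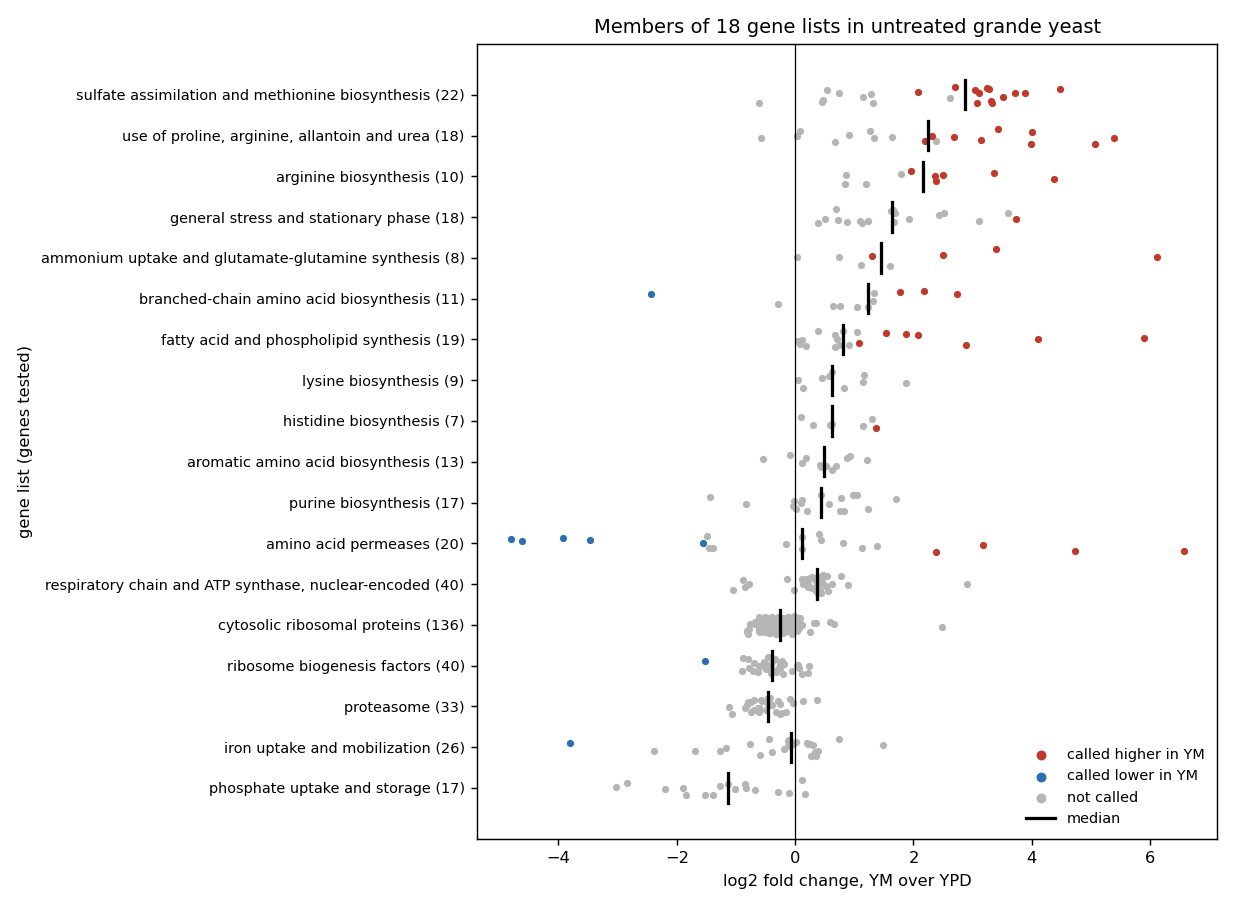
Log2 fold change, YM over YPD (x axis), of each gene tested in 18 lists (y axis, number of genes in parentheses), with genes called higher in red, called lower in blue, others in grey, and a black bar at the median. The medians run between -1.14 for phosphate genes and 2.87 for sulfur genes, and the permeases hold called genes on both sides.

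Of the 152 genes called, 85 were in none of the lists. Among the 12 highest were YCL048W-A (256 and 53.1 CPM in YM, 3.69 and 3.41 CPM in YPD, log2 5.44 ± 1.15), DPI8 (488 and 263 CPM in YM, 32.7 and 3.41 CPM in YPD, log2 4.44 ± 0.78) and LEE1 (121 and 18.5 CPM in YM, 4.61 and 3.15 CPM in YPD, log2 4.19 ± 0.74). In all 3 the YM library of the lower series was the higher of the pair. DPI8 kept its call without any one library, LEE1 lost it without either YPD library and YCL048W-A without these or the lower YM library (adjusted p up to 0.194). YOL163W had 11 and 19 counts in YM and none in YPD, which makes it at least 10.7-fold higher in YM, taking 3 counts over the YPD group as the floor. YJL218W had no count in YM and 18 and 21 counts in YPD, at least 12.2-fold lower in YM on the same floor. Neither was called in all fits that left out 1 library. Near-identical copies share reads with 3 of the genes called, YPL278C, YPL277C and YOR389W.

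Over all genes called, the GATAAG letters were found upstream of 49.5% of the 109 higher genes and 11.6% of the 43 lower genes, against 22.7% of the 5657 tested genes with a window. TGACTCA was found for 22% of the higher and 4.65% of the lower genes, against 4.17%, and CACGTG for 15.6% and 4.65%, against 6.22%. The RRPE element of ribosome assembly genes (AAAAATTTT) ran the other way, with 2.75% of the higher and 18.6% of the lower genes, against 9.86%. The stress element AGGGG was found for 37.6% of the higher genes, close to the 34.4% of all genes tested, and for 16.3% of the lower genes. All searches were on both strands of the 500 bases before the coding start. TGACTCA holds within it the letters TGACTC, which Bas1 reads.

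**Figure D4:**
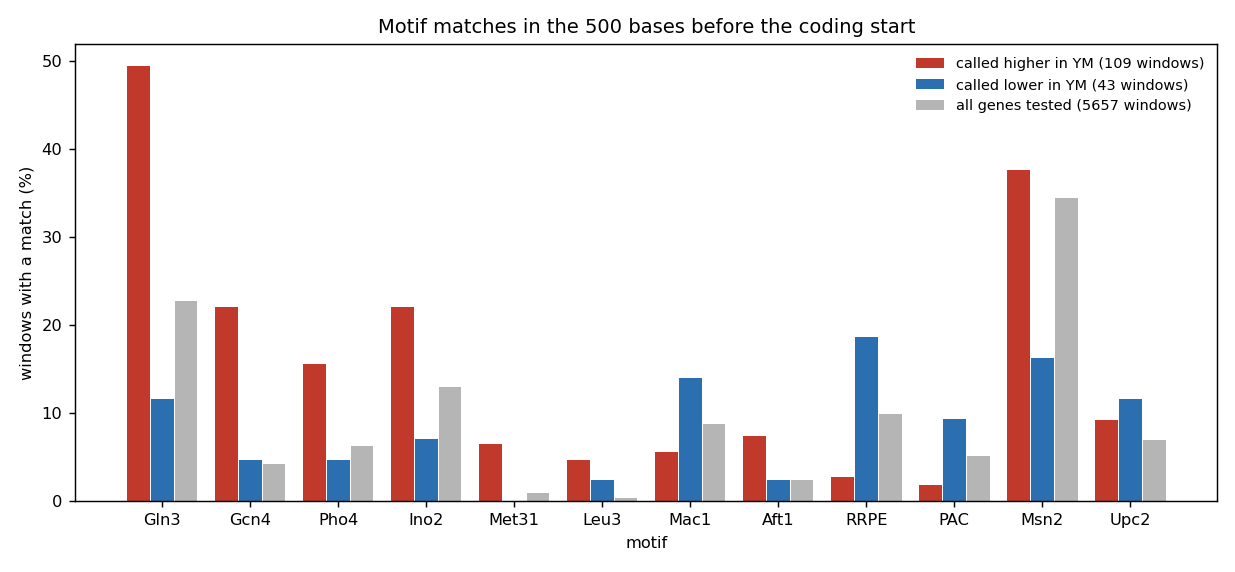
Share of 500-base upstream windows with at least 1 match (y axis, percent) to each of 12 motifs (x axis) for genes called higher in YM (red, 109 windows), called lower (blue, 43) and all genes tested (grey, 5657). The red bars exceed the grey ones most for the Gln3, Gcn4, Pho4 and Ino2 motifs, and the blue bars for RRPE.

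The same medium contrast was then read in petite yeast and in MCHM-treated grande yeast. In untreated petite yeast, 891 genes (15.2%) were called, 527 higher (9%) and 364 lower (6.22%). Of the 109 genes higher in grande yeast, 85 (78%) were also called higher in petite yeast, where they made up 16.1% of the 527 genes called higher. Of the 43 lower genes 17 (39.5%) were called lower in petite yeast, 4.67% of the 364 genes called lower there. A direct test of the difference between the responses found 31 genes (0.529%), with a higher value in grande yeast for 10 (0.171%) and a lower one for 21 (0.359%), of which 8 were also called in grande yeast: DAL5, PUT1, DUR3, SHH4, BAT2, OPT1, PSD1 and YOL163W. The nitrogen genes DAL4, DAL5, DUR3, PUT1 and PUT2 and the permease genes DIP5 and PTR2 were among the 31, each with a smaller response in grande yeast. PUT1 was at 184 and 111 CPM in YM in grande yeast, against 2743 and 2536 CPM in YM in petite yeast, while its YPD levels were 11.98 and 7.09 CPM in grande and 9.86 and 6.18 CPM in petite yeast. Its response was 3.98 in grande and 8.38 in petite yeast, a difference of -4.41 ± 0.57 on the log2 scale (adjusted p = 0.00995). DAL5 responded by 3.18 in grande and by 8.18 in petite yeast (difference -4.99 ± 0.76, adjusted p = 0.0266). DAL4, an allantoin permease gene, was not called in grande yeast (38.0 and 41.5 CPM in YM, 9.21 and 6.30 CPM in YPD) but had 1335 and 2428 CPM in petite YM, a difference of -6.26 ± 0.87 (adjusted p = 0.0159).

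BAT2 and OPT1 fell in grande yeast and did not fall in petite yeast. BAT2 had 60.6 and 42.9 CPM in YM in grande yeast and 696 and 783 CPM in YM in petite yeast, a difference in response of -2.93 ± 0.53 (adjusted p = 0.0468). OPT1 responded by -1.51 in grande and by 1.21 in petite yeast (difference -2.71 ± 0.45, adjusted p = 0.0396). PSD1, which makes phosphatidylethanolamine, went the other way, with a response of 1.53 in grande and -0.59 in petite yeast (difference 2.12 ± 0.39). INO1 (5.89 in grande, 3.64 in petite) and ITR1 (2.88 in grande, 0.35 in petite) did not pass the test of the difference (adjusted p = 0.287 and 0.0865). The histone genes HTA2, HTB2 and HHF2 were not called in grande yeast (0.03, 0.44 and -0.20) and were lower in YM in petite yeast (-3.13, -3.05 and -2.54), and their differences passed. HHF2 has a near-identical copy, HHF1. The medium response of lysine genes had a median of 0.62 in grande and 2.25 in petite yeast, with no lysine gene among the 31.

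In MCHM-treated grande yeast, 25 genes (0.427%) were called, 13 higher (0.222%) and 12 lower (0.205%) in YM. Of the genes called in untreated yeast, 12 of the 109 higher (11%, and 92.3% of the 13) and 4 of the 43 lower (9.3%, and 33.3% of the 12) were called in the same direction. The untreated and treated libraries came from divided cultures, so they share their source. No gene passed the test of the difference between untreated and treated yeast in edgeR (441 genes, 7.53%, at an unadjusted p under 0.05), against 41 genes with DESeq2. MEP2 responded by 6.12 in untreated and 5.93 in treated yeast, and TAT1 by -4.80 in untreated and -3.55 in treated yeast. MET6 responded by 4.48 in untreated and 0.67 in treated yeast (unadjusted p of the difference 6.63e-05 in edgeR's quasi-likelihood test, adjusted p = 0.0554). OPI3 responded by 4.11 in untreated and 0.76 in treated yeast, and PUT1 by 3.98 in untreated and 0.32 in treated yeast. In treated yeast MET6 had 3081 and 5593 CPM in YM and 2612 and 2859 CPM in YPD. The treated levels of OPI3 were 937 and 337 CPM in YM and 362 and 391 CPM in YPD. Those of PUT1 were 8.6 and 13.25 CPM in YM and 10.58 and 7.04 CPM in YPD. These are values side by side, and none of the differences passed in this model, which has no pairing. With a replicate block for the series of culture numbers, 15 genes passed.

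**Figure D5:**
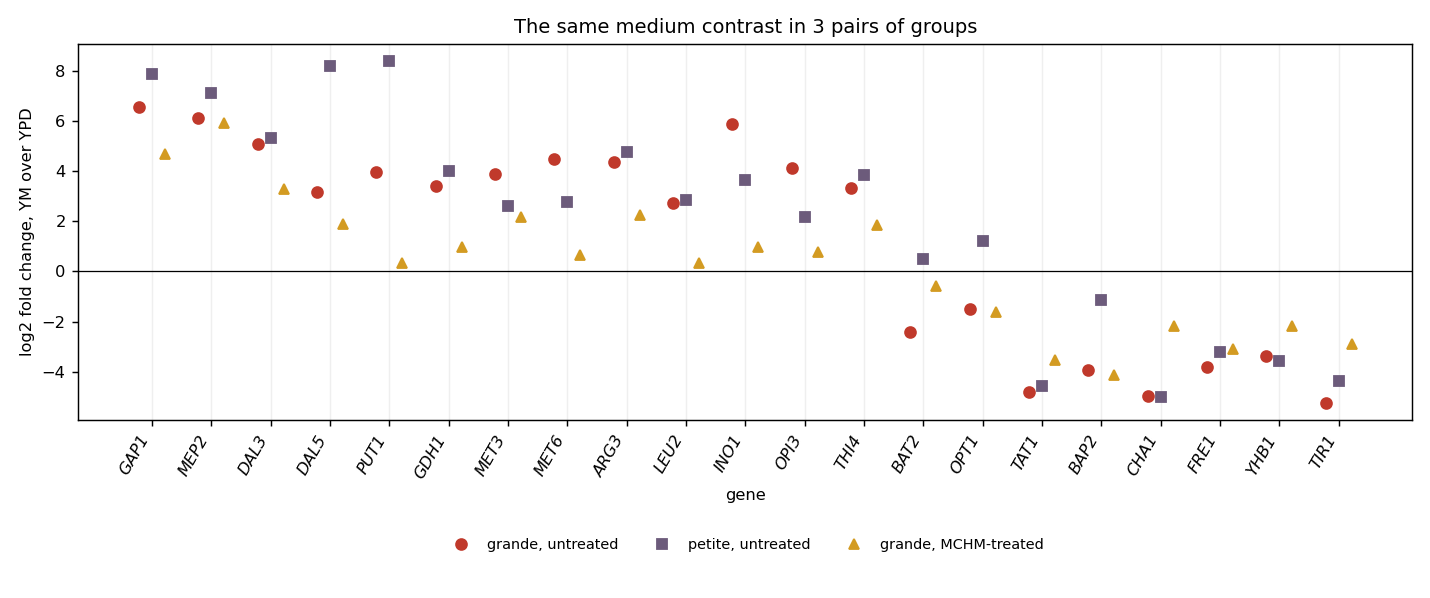
Log2 fold change, YM over YPD (y axis), of 21 genes (x axis) in untreated grande yeast (red circles), untreated petite yeast (purple squares) and MCHM-treated grande yeast (yellow triangles). DAL5 and PUT1 lie above 8 in petite yeast and between 3 and 4 in untreated grande yeast, and BAT2 and OPT1 are below 0 in grande yeast only, while TAT1 and FRE1 are below 0 in all 3.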

How the data were processed

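RNA from untreated grande S96 in YM and YPD (2 cultures each) was extracted with hot phenol, prepared with an unstranded TruSeq v2 kit and sequenced in pairs on a MiSeq. The authors counted reads per gene with Rsubread and deposited the raw counts in a table of 6717 genes. Per the submitters' processing notes CASAVA 1.7, TopHat2 2.0.12 and DESeq2 1.8.1 were used with R64 (sacCer3). A deposited table of the authors' own fold changes and p-values was not used.

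The counts of all 16 libraries were fitted with edgeR 4.0.16 (R 4.3.3, limma 3.58.1), with 1 mean per group, TMM factors, a filter of at least 10 counts (15 in total) and a quasi-likelihood test with Benjamini-Hochberg adjustment. DESeq2 1.42.0 was an alternative. Fold changes used a prior count of 0.125. The plots added 0.5 CPM. The series of culture numbers name libraries and were taken as no pairing. P-values measure the spread between the 2 libraries of a group, estimated over all 8 groups and not from the 4 libraries compared alone. Depth sets a floor of 3 counts, for counting error only. The code was tested on simulated data. Of the genes, 6025 matched the RefSeq R64 annotation, which gave the sequences (Python 3.11.15, numpy 2.4.6, pandas 2.3.3, matplotlib 3.10.9).

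Members and lists were chosen with earlier results of these data known. Named genes were the 12 highest and 12 lowest called with a mean of 50 counts or more and no overlap, up to 4 called per list and direction, or else the 2 with the smallest p, and strain markers. Other genes named were chosen after their values were seen. Alternatives were other scalings, filters, tests and samples, and leaving out each library.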

Additional observations from a re-analysis of the deposited data

Results flagged for a closer look

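For 4 of the genes named, the response to the medium differed between untreated grande and untreated petite yeast in the test of the difference over all genes (edgeR, Benjamini-Hochberg). The grande response less the petite response was -4.99 on the log2 scale for DAL5 (adjusted p = 0.0266), -4.41 for PUT1 (adjusted p = 0.00995), -2.93 for BAT2 (adjusted p = 0.0468) and -2.71 for OPT1 (adjusted p = 0.0396). For DAL5 the YM libraries were at 84.2 and 162 CPM in grande and 4190 and 4423 CPM in petite yeast, and the YPD libraries at 15.2 and 12.1 CPM in grande and 16.02 and 13.8 CPM in petite yeast. For OPT1 the YM libraries were at 68.7 and 68.2 CPM in grande and 617 and 473 CPM in petite yeast, and the YPD libraries at 170 and 220 CPM in grande and 150 and 322 CPM in petite yeast. For both genes the YPD libraries of grande and petite yeast overlapped and the YM libraries did not.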

How the results depend on the processing

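The 152 calls (109 higher, 43 lower) kept their direction in the alternatives run. DESeq2 called 298 genes (211 higher, 87 lower), 151 of them shared. Scaling by total count alone gave 70 higher and 71 lower genes, with 108 of the 152 shared, and turned the median of 11 lists that had been within 0.2 of 0. With only the 4 libraries compared, 8 genes passed (5 higher, 3 lower). RLE factors gave 158, no filter 156, a minimum of 50 counts 155 and no fold bound 163. Leaving out 1 library gave 36 to 87 calls, 26 to 76 higher and 7 to 25 lower. A replicate block for the series of culture numbers gave 346 calls (243 higher, 103 lower), all 152 among them. The numbers are no stated pairing. The deviations of the 2 series in YM and YPD had a correlation across genes of 0.707. Over 28 pairs of groups the median of this correlation was 0.455 and the lowest 0.0257. The genes that differed in response between grande and petite yeast numbered 31, against 194 with DESeq2 and 131 with the replicate block. Between untreated and MCHM-treated grande yeast there were 0, against 41 with DESeq2 and 15 with the block. No called gene changed sign. When 1 library was left out, 4 genes that were not called did: GSY1 (-1.76) ran between -4.65 and 2.998, GDB1 (0.43) between -0.34 and 1.15, STE2 (0.32) between -0.29 and 0.83 and MFA1 (-0.14) between -0.53 and 0.54. Over 107 genes named, 975 of the recomputed values stayed on the same side of the threshold, 141 missed it and 53 newly passed it. The cause was not tested. With 2 libraries a group, low-count genes such as DAL80 rest on few reads in YPD.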

Other observations

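Lists not described above held few calls. The 7 vitamin B6 genes all had YM above YPD without overlap, against 20.9% of all genes tested, and a median of 1.20, but none passed the edgeR test. Among them SNZ2 has a near-identical copy, SNZ3, and had 18 and 17 counts in YM and 6 and 7 in YPD. Of 9 daughter-cell separation genes 5 had YM above without overlap and 1 below (median 0.52), against 20.9% and 22.3% of all genes tested, and none passed. Of the 18 structural cell wall genes, 13 had YM above YPD without overlap (median 0.74), against 20.9% of all genes tested, and none passed. The 16 zinc genes had a median of 0.40 and none was called. YM lay above YPD without overlap for 8 of them and below for 1, against 20.9% and 22.3% of all genes tested.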
